A study of Bos taurus with 20 samples.

Results

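The respiratory chain genes were taken as all genes of the count table whose symbols name a subunit of complexes I to V, cytochrome c1 (CYC1) or cytochrome c (CYCS), together with the protein genes of mitochondrial DNA. The rule found 101 of 33063 named genes, of which 88 are nuclear and 13 are mitochondrial. The nuclear set holds 36 genes of complex I, 4 of complex II, 9 of complex III, 19 of complex IV, 19 of complex V and CYCS. It also takes in ATP5S, which shares the name stem without being a core subunit, and COX7ALP1, a COX7A-like gene, and it leaves out NDUFAB1, which was counted with the assembly factors.

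Clonal populations of bovine mesenchymal stem cells (MSCs) were compared before differentiation, 10 adipogenic (A) and 10 non-adipogenic (N), each grown from a single sorted cell. The cells came from visceral fat of Holstein Friesian x Aberdeen Angus calves a few months old. They were expanded in medium with fetal bovine serum and basic FGF, the same for both conditions. After single-cell sorting, part of the medium was conditioned by MSC cultures of the same animal, so it differed between animals. By the paper's account, A clones took longer than N clones to become confluent, and the A clones sequenced were those with the largest percentage of differentiated cells. A clones had produced adipocytes in both differentiation tests and N clones had failed in the first, so the condition is a property of the clone and not a treatment. There were 4 A and 4 N clones from each of animals 22 and 23, but only 1 of each condition from animals 17 and 20. A clone is named here by its animal and clone number, for example N 22-18. Libraries held between 14615493 and 43111345 counts, N 22-18 being the deepest. All 10 mesenchymal stromal markers examined, PDGFRA and COL1A1 among them, had counts in every clone, but their levels were not uniform. THY1 ran from 0.395 to 204 CPM in N and from 18.0 to 187 in A. NT5E ran from 0.508 to 409 CPM in N and from 65.2 to 363 in A. The lowest N values of THY1 and NT5E were both those of N 22-5, which was kept in the N group. COL3A1 was called between A and N, with an adjusted p of 0.0126 in edgeR's test. The leukocyte gene PTPRC was at 0 counts in 18 of 20 clones and the adipocyte gene LEP in 14. The macrophage gene CD68 and the adipocyte genes PLIN1, FABP4, CIDEC and LIPE were at 0 in no clone, and CD68 and PLIN1 were called between A and N, with adjusted p-values of 0.0157 and 0.0456 in edgeR's test. The 5 haematopoietic markers summed to between 0.649 and 9.76 CPM in N and between 2.53 and 11.1 in A, and the 6 adipocyte markers to between 5.65 and 32.2 in N and between 9.50 and 30.8 in A. CSF1R of the haematopoietic list, not tested, had at most 0.255 CPM in N and between 0.476 and 2.38 in A. The 6 smooth muscle and pericyte markers summed to between 129 and 6212 CPM in N and between 932 and 9038 in A. MYH11 and CSPG4 of that list were called. The 4 endothelial markers summed to between 0.960 and 38.1 CPM in N and between 3.90 and 22.9 in A, and none was called. The part of all these markers in the results was not tested.

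The respiratory chain passes electrons from NADH through complex I, or from succinate through complex II, to ubiquinone, on to complex III, by way of cytochrome c to complex IV and from there to oxygen. Protons pumped on the way drive ATP synthase, which is complex V. Complexes I, III, IV and V are mosaics of subunits from both genomes, while complex II and cytochrome c are wholly nuclear. Mitochondrial genes are read from long transcripts of both DNA strands that are cut into messengers, so their output is set by other machinery than that of the scattered nuclear genes. MSCs are generally held to rely largely on glycolysis and to raise mitochondrial respiration as they become adipocytes.

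The first question was how much of each library the chain takes up. The 13 mitochondrial genes took 3.15 to 4.51% of the counts of N clones (median 3.54%) and 2.65 to 3.65% of those of A clones (median 3.23%). The groups overlapped, although 3 of 10 A clones had a smaller share than any N clone. Mean shares were 3.67% ± 0.428 (SD, n = 10) in N and 3.25% ± 0.320 (SD, n = 10) in A. The nuclear genes together took 0.898% ± 0.147 (SD, n = 10) of the counts in N and 0.777% ± 0.0722 (SD, n = 10) in A, again with overlapping ranges. Both shares were therefore lower on average in A clones, but the scaling used for the tests below, TMM, which matches libraries on the bulk of their genes, took up much of that gap. In CPM, which are counts scaled to a common library size, here with TMM, the mitochondrial sum was 35450 ± 5052 (SD, n = 10) in N and 33946 ± 4261 (SD, n = 10) in A, and the nuclear sum was 8686 ± 1649 and 8092 ± 677 (SD, n = 10 each). In bulk RNA of this kind, fewer cells with a transcript and less of it per cell cannot be told apart.

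The balance of the genomes differed little between the conditions. The log2 ratio of mitochondrial to nuclear counts needs no library scaling. Its lowest, median and highest values were 1.595, 2.02 and 2.56 in N clones, and 1.74, 2.06 and 2.33 in A clones. Every A clone lay within the range of the N clones. The mean difference, A minus N, was 0.02 on the log2 scale, against within-group SDs of 0.285 in N and 0.203 in A. The sign of that difference was not the same in every animal, at −0.48, 0.13, −0.03 and 0.18 in animals 17, 20, 22 and 23.

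**Figure D1:**
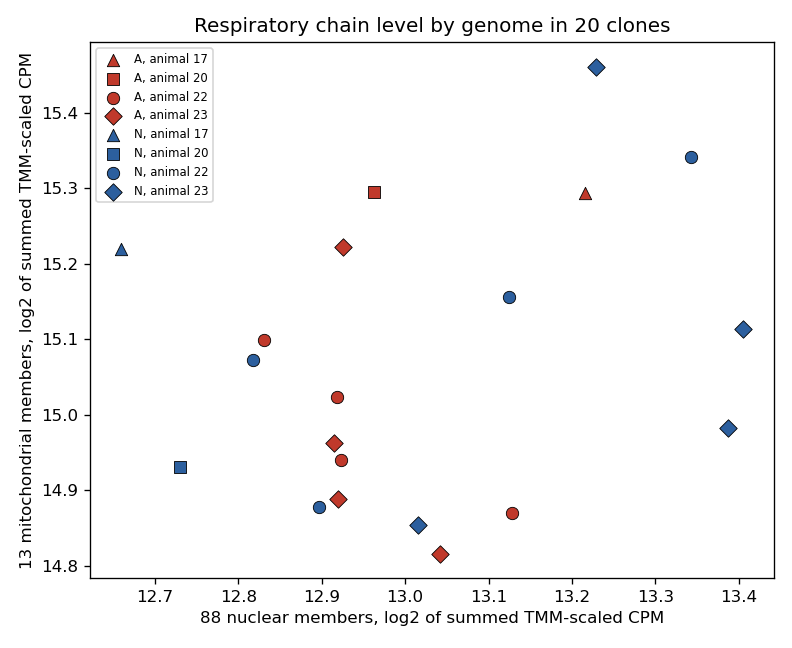
Summed level of the 88 nuclear members (horizontal axis) against that of the 13 mitochondrial members (vertical axis), both as log2 of TMM-scaled CPM, in each of the 20 clones. Colour marks the condition and shape the animal; N clones reach both the lowest nuclear level (N 17-23, 12.66) and the highest (N 23-22, 13.40), and A clones lie between them.

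Each member was then tested for a difference between A and N clones with edgeR's quasi-likelihood test, with the animal as a block and Benjamini-Hochberg adjustment over all 12900 genes tested. Of the 101 members 94 had enough counts to be tested, all 13 mitochondrial and 81 nuclear. Across all genes tested, 20.6% were called at an adjusted p under 0.05, 10.3% higher and 10.3% lower in A clones. Among the respiratory chain genes the calls were 1 of 81 nuclear genes, lower in A, and 0 of 13 mitochondrial genes. At an unadjusted p under 0.05, edgeR's test picked 8 nuclear genes and 1 mitochondrial gene, 9 of 94 in all, beside 36.1% of all genes. That number was 20 without N 17-23 or A 17-57, and between 4 and 12 without any other clone. DESeq2's Wald test called 2 nuclear genes and 1 mitochondrial gene at an adjusted p under 0.05, beside 27.4% of all genes. The median log2 fold change was −0.05 over the nuclear genes, with 23 above 0 and 58 below, −0.07 over the mitochondrial genes, with 3 above 0 and 10 below, and −0.01 over all genes tested. The differences were small, with a median absolute log2 fold change of 0.08 in the nuclear and 0.07 in the mitochondrial genes beside 0.25 over all genes.

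The intervals around these differences were narrow. They rest on the spread between clones with the animal as a fixed block, so they do not measure the spread between animals. Taken per animal, the median difference of the nuclear genes ran from −0.30 in animal 23 to 0.57 in animal 17. For 12 of 13 mitochondrial and 74 of 81 nuclear genes the 95% interval of the log2 fold change lay within 0.5 of 0 on either side, which is 91.5% of the members beside 40.1% of all genes tested. Within 1 log2 unit lay all 13 mitochondrial genes and 80 of 81 nuclear genes, COX7A1 being the exception. The median over the nuclear genes was below 0 under each of the scalings tried, but it was 0.10 without animal 23 and 0.13 with counts summed per animal and condition. The mitochondrial median was also close enough to 0 to change sign, at 0.01 both without N 23-23 and with summed counts. With total counts in place of TMM, the median of all genes moved from −0.01 to −0.13. On that scale 14 nuclear and 2 mitochondrial genes were called, all lower in A, beside 24.7% of all genes called in either direction, with medians of −0.16 and −0.18 that are to be read against this shift.

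**Figure D2:**
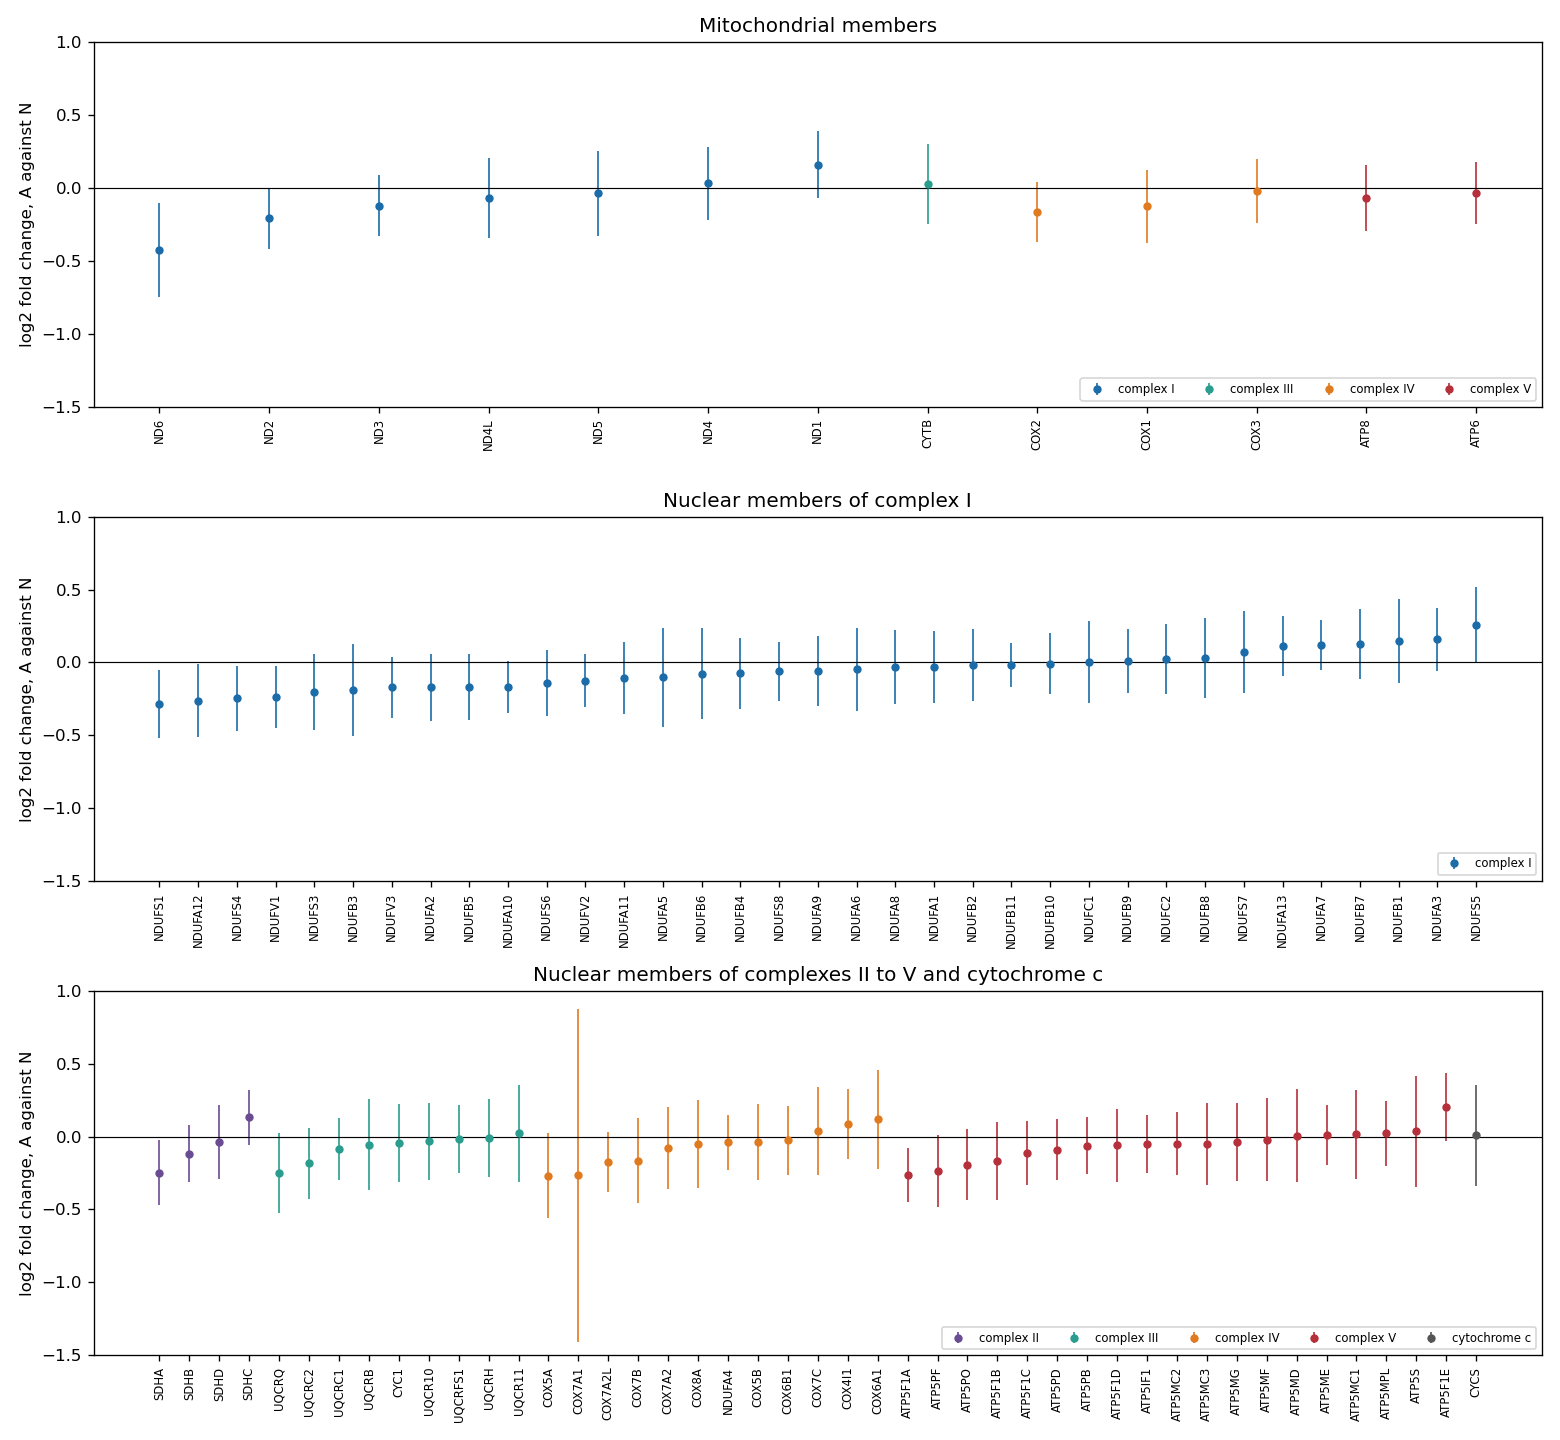
Log2 fold change, A against N, of tested members (points) with 95% intervals from edgeR's fit (bars), in panels for the mitochondrial genes, the nuclear genes of complex I and the other nuclear genes; colour marks the complex. The points other than ND6, which is the lowest at −0.43, lie within 0.3 of 0, and COX7A1 has the widest interval.

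Complex I, the entry point for electrons from NADH, had 36 nuclear genes tested and none called by edgeR's test, 6 of them with an unadjusted p under 0.05 beside the 36.1% of all genes, with 11 above and 25 below 0 and a range of log2 fold changes from −0.29 to 0.26. NDUFS1, the largest subunit of the complex and the complex I gene with the most counts, had 167 ± 33.6 CPM in N and 138 ± 21.6 in A (SD, n = 10 each), with a log2 fold change of −0.29 and an adjusted p of 0.0738 in edgeR's test. The accessory subunit NDUFS5 had the highest value of the complex, at 0.26 with an adjusted p of 0.132 in edgeR's test. NDUFB10, another accessory subunit, had nearly equal means of 47.9 and 47.4 CPM.

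Of the mitochondrial subunits of complex I, which form its proton-pumping membrane arm, ND6 differed most. ND6 is the protein gene read from the opposite DNA strand to the other 12. It spanned 37.8 to 91.1 CPM in N (median 47.9) and 32.4 to 48.7 CPM in A (median 39.5). The N values were the more scattered, and N 22-18 was the highest and N 23-23 the next at 76.9. The log2 fold change of −0.43 (SE 0.15) had an adjusted p of 0.0556 in edgeR's test, was below 0 in all 4 animals, and had a 95% interval from −0.75 to −0.10. ND6 lies beside ND5 on the opposite strand, and the strand setting of the counting is not given in the sources used here, so its counts are uncertain. The remaining mitochondrial genes of complex I were not called, with ND1 at 0.16, ND4 at 0.03, ND5 at −0.04, ND4L at −0.07, ND3 at −0.12 and ND2 at −0.21, and adjusted p-values from 0.143 to 0.873 in edgeR's test. ND4L and ND4 overlap, so reads on the shared stretch cannot be assigned with certainty.

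Complex II, succinate dehydrogenase, also serves the tricarboxylic acid cycle and has no mitochondrially encoded subunit. SDHA, its flavoprotein, had 384 ± 82.1 CPM in N and 320 ± 41.1 in A (SD, n = 10 each), a log2 fold change of −0.25 with an adjusted p of 0.102 in edgeR's test. SDHB, the iron-sulfur subunit, had −0.12. The membrane anchors SDHC and SDHD had 0.13 and −0.04. No gene of the complex was called.

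Complex III was flatter still, with 9 nuclear genes between −0.25 and 0.02 and none called. CYC1, its cytochrome c1, had 112 ± 31.5 CPM in N and 106 ± 15.8 in A (SD, n = 10 each). UQCRC1, a core protein and the complex III gene with the most counts, had a log2 fold change of −0.09. CYTB, the mitochondrial subunit, had 0.03 with a 95% interval that spanned 0. CYCS, which carries electrons from complex III to complex IV, had 96.4 ± 39.0 CPM in N and 90.8 ± 12.2 in A (SD, n = 10 each), and a log2 fold change of 0.01 with an adjusted p of 0.976 in edgeR's test. Its N values ran from 37.2 to 168 CPM, the lowest being N 17-23 and N 20-15 and the highest N 23-74, while its A values ran from 70.1 to 116.

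Complex IV, cytochrome c oxidase, draws several subunits from pairs of isoforms, and in these clones each pair was represented by its widespread form. COX4I1 had 276 ± 53.3 CPM in N and 292 ± 33.7 in A (SD, n = 10 each), while COX4I2, which is known from lung and from hypoxia, had at most 8 counts in any clone. COX6A1, with 186 CPM in N and 201 in A, stood beside at most 2 counts of the muscle form COX6A2. COX8A, with 98.8 and 95.6 CPM, stood beside at most 3 counts of COX8B, and COX6B1, with 121 and 119 CPM, beside at most 18 counts of the testis form COX6B2. None of the widespread forms was called. The low forms COX4I2, COX6A2, COX6B2, COX8B, COX7B2, COX7ALP1 and NDUFA4L2 make up the 7 members that did not pass the filter on low counts. COX7B2 had 9.96 CPM in N 23-23 and at most 0.434 CPM in the other clones. NDUFA4L2, known as a hypoxia-linked relative of NDUFA4, ranged from 0.05 to 0.97 CPM in N and from 0.05 to 2.39 in A, whereas NDUFA4 itself had 149 and 145 CPM.

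Among the tissue-linked forms COX7A1 was the exception, the form of heart and skeletal muscle that is also known from brown fat, and it was low but measurable. It ranged from 0.23 to 7.92 CPM in N and from 0.29 to 2.86 in A, beside 149 ± 40.5 and 139 ± 13.8 CPM (SD, n = 10 each) of COX7A2. Its highest values were in N 20-15 and N 17-23. The log2 fold change of −0.26 (SE 0.54) had a 95% interval from −1.41 to 0.88, which spans 0 widely. COX7A2L, which is linked to the assembly of supercomplexes, had −0.18 and was not called. Of the mitochondrial subunits that form the catalytic core, COX1 had −0.13, COX2 −0.17 and COX3 −0.02, none of them called. COX1 reached its highest values in the A clones of animals 20 and 17 and its lowest in A clones of animal 23, and its A values, from 11086 to 21290 CPM, spanned a wider range than its N values, from 12749 to 18834.

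Complex V held the single call. ATP5F1A, the alpha subunit of the catalytic head of ATP synthase, spanned 571 to 939 CPM in N (median 772) and 545 to 702 CPM in A (median 619). The ranges overlapped, because 3 N clones, N 17-23, N 20-15 and N 23-10, lay within the A range. The log2 fold change was −0.26 (SE 0.088), with an adjusted p of 0.0428 in edgeR's test, and the difference was below 0 in 3 of 4 animals, at 0.25, −0.07, −0.29 and −0.41 in animals 17, 20, 22 and 23. The call held in 7 of 20 fits that left out 1 clone, those without N 17-23, N 20-15, N 22-5, N 23-10, A 17-57, A 20-106 or A 22-121, and was lost without any of the other clones, with adjusted p-values from 0.0175 to 0.0777 over the 20 fits. It was also lost with DESeq2 size factors, where its adjusted p was 0.0509. ATP5F1B, the beta subunit, had a log2 fold change of −0.17 and was not called. The small subunit ATP5F1E had the highest value of the complex at 0.20, and ATP5IF1, the inhibitor of the enzyme, had −0.05. The mitochondrial subunits ATP6 and ATP8, whose genes overlap, had −0.03 and −0.07.

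**Figure D3:**
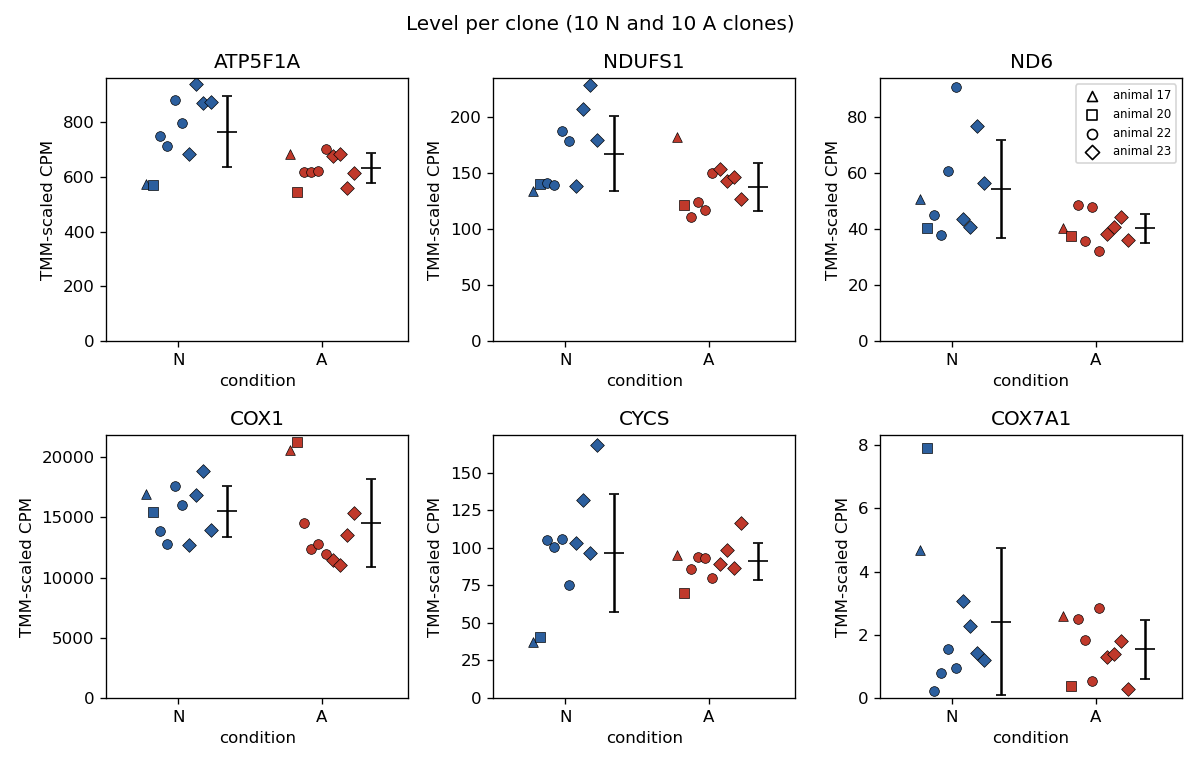
TMM-scaled CPM of ATP5F1A, NDUFS1, ND6, COX1, CYCS and COX7A1 in each N and A clone (points, shaped by animal), with the mean and SD of the 10 clones of each condition beside them. The groups overlap in every panel, and the N clones of animals 17 and 20 give the lowest ATP5F1A and CYCS values of the N group.

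No member separated the conditions fully. A gene whose A clones all lay to one side of all N clones was found 0 times among the 94 members and 41 times among the 12900 genes tested.

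The animals did not agree on the direction of the nuclear difference. In animal 23 the mean of the A clones lay below that of the N clones for 79 of 81 nuclear genes, with a median difference of −0.30 in log2 CPM, while 50.2% of all genes tested lay below 0 there. In animal 22 the count was 47 of 81, with a median of −0.04. In animals 17 and 20, with a single clone of each condition, only 3 and 20 of the 81 lay below 0, with medians of 0.57 and 0.28. The nuclear genes vary together between clones, as described below, so these counts are closer to 1 observation per animal than to 81. In CPM, the nuclear sum of animal 23 was 9859 ± 1192 in N and 7921 ± 343 in A (SD, n = 4 each), and that of animal 22 was 8539 ± 1431 and 7936 ± 713 (SD, n = 4 each). For the mitochondrial genes the counts below 0 were 11, 2, 10 and 9 of 13 in animals 17, 20, 22 and 23, an order that was not that of the nuclear genes.

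The difference between animals 22 and 23 was tested gene by gene as an interaction of condition and animal, on their 16 clones. It was called for 0 members in edgeR's test, where 0.031% of all genes were called, and for 0 members in DESeq2's likelihood ratio test. That test called 0.799% of all genes that it gave an adjusted p. At an unadjusted p under 0.05 there were 6 members of 94 in edgeR's test, beside 9.06% of all genes. This number rested on single clones: it was 31 of 94 without N 22-17, beside 11.2% of all genes, and between 3 and 9 without any other clone. NDUFB10 and SDHB were among the nuclear genes with the smallest p, each with a difference, A minus N, that was lower in animal 23 than in animal 22. NDUFB10 had 44.3 ± 4.14 CPM in N and 48.5 ± 8.81 in A in animal 22, and 54.9 ± 2.29 and 44.0 ± 1.197 in animal 23 (SD, n = 4 each). Its interaction had an adjusted p of 0.454 in edgeR's test.

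Between animals at a fixed condition, 0 members were called in edgeR's test, where 4.6% of all genes were called. At an unadjusted p under 0.05 there were 5 members of 94, beside 22% of all genes, and DESeq2's likelihood ratio test called 2, beside 13.3% of all genes. Without A 17-57 the 5 became 18, and without any other clone there were between 2 and 7. CYCS came closest, with an adjusted p of 0.118 in edgeR's test and mean log2 CPM of 5.90, 5.74, 6.52 and 6.77 in animals 17, 20, 22 and 23. The mitochondrial gene ND3, with an adjusted p of 0.150 in edgeR's test, came next, before NDUFS6, a complex I subunit, and COX5A, a complex IV subunit, with 0.175 and 0.217. The lowest mean of CYCS was in animal 20 and its highest in animal 23.

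Across the 20 clones the nuclear genes moved as a block that the mitochondrial genes did not share. Summed levels of the nuclear genes of complexes I, II, III, IV and V correlated with each other with Pearson's r from 0.785 to 0.969 over 10 pairs of complexes. Mitochondrial and nuclear sums were only weakly related, with Pearson's r from −0.173 to 0.377 over the 20 pairs of a mitochondrial with a nuclear complex. For the whole genomes Pearson's r was 0.272 and Spearman's rho 0.248 (n = 20), and r was 0.0286 without N 23-23 and N 22-17, the clones farthest from the median mitochondrial level. After the mean of each animal and condition was subtracted, r was 0.264 in the 16 clones of animals 22 and 23, and 0.444 without 2 of them. It was 0.322 within N and 0.0979 within A. All values of a clone come from the same library and clones share animals, so these correlations are given as descriptions.

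**Figure D4:**
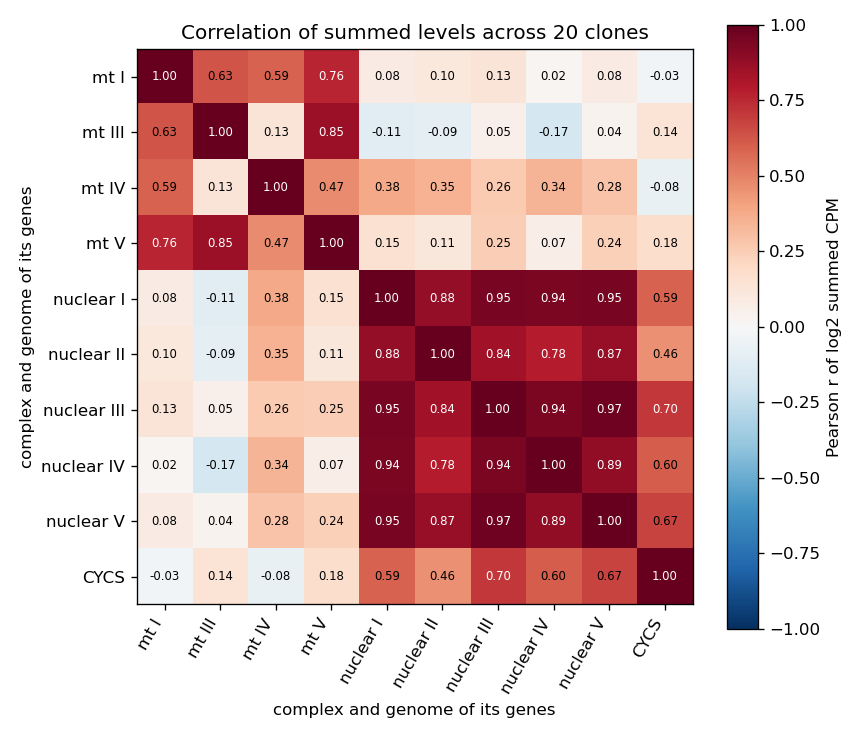
Pearson's r between log2 summed CPM of the complexes, split by genome, across 20 clones; rows and columns are the sets, and colour and number give r. The nuclear complexes form a block from 0.78 to 0.97, the mitochondrial complexes a looser one from 0.13 to 0.85, and the rectangle between the genomes stays below 0.38.

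Single genes showed the same division. The mean correlation of pairs was 0.589 within the nuclear genes (3240 pairs), 0.526 within the mitochondrial genes (78 pairs) and 0.0746 between them (1053 pairs). Partners in the same complex were no exception, with mean r between mitochondrial and nuclear subunits of 0.0382 in complex I, 0.0397 in complex III, 0.176 in complex IV and 0.0851 in complex V. Set against the sum of the other nuclear genes, 75 of 81 nuclear genes had r above 0.5, with a median of 0.811. The exceptions, chosen after their values were seen, were COX7A1 at −0.0291, ATP5MC2 at 0.139, ATP5S at 0.145, NDUFS5 at 0.403, ATP5F1E at 0.461 and NDUFA3 at 0.472. Among the mitochondrial genes ND3 followed the others least, at 0.244, and ND2 most, at 0.722.

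Other lists showed which genes the nuclear block moved with. Its sum correlated across the 20 clones with that of the tricarboxylic acid cycle enzymes at r = 0.862, of the mitochondrial ribosome at 0.845 and of glycolysis at 0.661, but with that of the cytosolic ribosomal proteins at 0.0629. The first 3 relations were closer in the N clones, at 0.942, 0.903 and 0.848, than in the A clones, at 0.358, 0.406 and 0.237 (n = 10 each). With the mean of each animal and condition subtracted in animals 22 and 23 they were 0.821, 0.686 and 0.713, and without the 2 clones farthest from the median of the other list they were 0.747, 0.4665 and 0.681. The nuclear sum itself spanned 6472 to 10846 CPM in N clones and a narrower 7286 to 9512 CPM in A clones. Neither the part of that range nor the difference between N and A in these correlations was tested. The mitochondrial sum correlated with the mitochondrial ribosome at 0.0287, with TFAM, the packaging and transcription factor of mitochondrial DNA, at −0.319, with POLRMT, its RNA polymerase, at −0.0370, and with LRPPRC, which stabilises mitochondrial messengers, at 0.473. Its correlation with the log2 of the total counts of the library was 0.411, beside 0.111 for the nuclear sum. By Spearman's rho these 2 values were 0.629 and 0.218, and rho of the mitochondrial sum with LRPPRC was 0.451. The part of depth in the mitochondrial level was not tested.

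The N clones were the more varied group in the nuclear genes. Around the mean of each animal and condition in animals 22 and 23, the median SD of log2 CPM was 0.252 in N and 0.160 in A, and the SD was larger in N for 72 of 81 nuclear genes, or 88.9%, beside 57.5% of all genes tested. Among the mitochondrial genes it was larger in N for 11 of 13. Leaving out any 1 clone of these animals left between 63 and 75 nuclear genes with the larger SD in N. Proliferation genes were also more spread in N, for 18 of 20 genes, whereas the cytosolic ribosomal proteins were so for 7 of 81, or 8.64%, with a median SD of 0.194 in N and 0.325 in A. Because the nuclear genes vary together, the count reflects few independent observations, and no test was made.

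**Figure D5:**
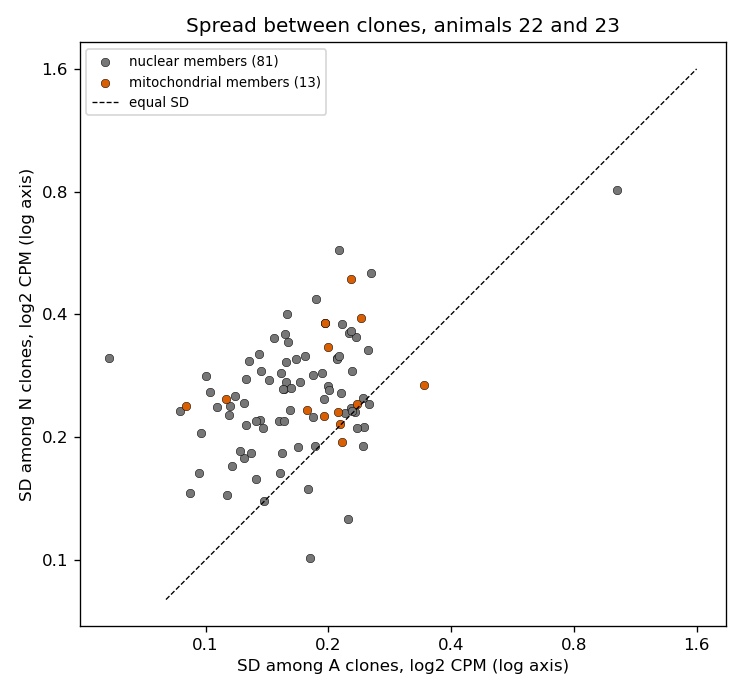
SD of log2 CPM among A clones (horizontal, log axis) and among N clones (vertical, log axis) of animals 22 and 23, around the mean of each animal and condition, for 81 nuclear (grey) and 13 mitochondrial (orange) members. The dashed line marks equal SD; 72 nuclear and 11 mitochondrial genes lie above it, with COX7A1 at the far right.

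Few genes held much of the mitochondrial counts, while the nuclear counts were spread over more genes. COX1 alone took 43.8% ± 2.74 of the mitochondrial counts in N and 42.3% ± 5.75 in A (SD, n = 10 each), COX3 11.8% and 12.2%, and ATP6 8.05% and 8.27%. ND6 took 0.152% ± 0.0391 and 0.120% ± 0.0203 (SD, n = 10 each), the smallest share of the 13. Of the nuclear counts ATP5F1A took 8.33%, ATP5F1B 7.005%, SDHA 4.19% and COX4I1 3.40% on average. The 19 nuclear genes with the largest shares together held 51.05%. These shares are not corrected for gene length, so they do not rank the genes by messenger number.

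Around the chain stand the genes that build and feed it. Among 48 assembly factors 6 were called, beside 20.6% of all genes. TTC19, a complex III factor, rose from 24.6 ± 4.42 to 34.7 ± 4.53 CPM (SD, n = 10 each), with 8 of 10 A clones above every N clone and an adjusted p of 0.00604 in edgeR's test. NDUFAF1, a complex I factor, and PET100, a complex IV factor, also rose, and NUBPL, which supplies iron-sulfur clusters to complex I, CMC2, a complex IV factor, and ATPAF1, a complex V factor, fell. The list as a whole had a median log2 fold change of −0.04.

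Of 30 genes that transcribe, copy or process mitochondrial DNA and its RNA, 6 were called. That is 20%, close to the 20.6% of all genes. TEFM, the elongation factor, and SUPV3L1, an RNA helicase, rose, by 0.29 each on the log2 scale. PNPT1, which works with that helicase in RNA turnover, fell from 48.1 ± 4.84 to 39.5 ± 2.84 CPM (SD, n = 10 each), with 9 of 10 A clones below every N clone. MTERF2, FASTKD1 and the protease LONP1 fell as well. TFAM had −0.11 and POLRMT 0.19, neither of them called. Among 12 regulators of mitochondrial biogenesis 3, or 25%, were called, ESRRA, PPARA and SIRT1, all lower in A. PPARGC1A, at 2.74 ± 2.95 CPM in N and 2.06 ± 1.36 in A (SD, n = 10 each), was low and not called. NRF1, at a log2 fold change of 0.01, was not called either.

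In the tricarboxylic acid cycle, which supplies NADH and succinate, 5 of 14 enzymes were called, or 35.7%, all lower in A. Of all genes tested 20.6% were called, and 10.3% were called lower. IDH2, the NADP-dependent mitochondrial isocitrate dehydrogenase, fell from 39.7 ± 18.5 to 14.0 ± 6.04 CPM (SD, n = 10 each), a log2 fold change of −1.45 (SE 0.27) with an adjusted p of 0.00293 in edgeR's test. SUCLG2 fell by 0.45, IDH3G by 0.30, SUCLG1 by 0.24 and FH by 0.21 on the log2 scale, while citrate synthase (CS) had −0.14 and was not called. The mitochondrial ribosome had 12 of 78 genes called, or 15.4%, which is below the share of all genes called in either direction. MRPS18A was higher and 11 of 78, MRPL3 and MRPS22 among them, were lower, beside 10.3% of all genes called lower. Of the 78 log2 fold changes 19 were above 0 and 59 below, with a median of −0.10 over the list. In the membrane and import list 3 of 21 were called, or 14.3%, also below the share of all genes. TOMM70 was higher and HSPD1 and PHB2 were lower.

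Comparison lists were counted in the same way, beside the 20.6% of all genes called. Glycolysis had 2 of 17 genes called, or 11.8%, HK2 higher at 1.47 and PFKP lower at −0.91. The cytosolic ribosomal proteins had 1 of 81 called, or 1.23%, RPL10A at −0.38. Proliferation genes moved with the condition, with 10 of 20 called, or 50%, and all 20 below 0. Their summed level lay between 295 and 1101 CPM in N (median 622) and between 141 and 722 CPM in A (median 375). MKI67 fell by 1.77 on the log2 scale. Across the 20 clones that sum correlated with the nuclear respiratory chain sum at r = 0.0164 and with the mitochondrial sum at −0.361. Within N the values were −0.105 and −0.446, within A −0.200 and −0.689, and with the mean of each animal and condition subtracted −0.287 and −0.374. The 6 mesothelial markers summed to between 8.82 and 8497 CPM in N and between 7.27 and 976 in A, with 1 of them, MSLN, called and with WT1 at 0 counts in 5 clones. The part of either list in the respiratory chain values was not tested.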

How the data were processed

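The authors trimmed reads of a directional RNA library with Trimmomatic 0.36, mapped them with STAR 2.5.2b to ARS-UCD1.2 and took unique reads within exons with Subread 1.5.2. They deposited raw counts per gene and clone. The strand setting is not given in the sources used here, and the paper does not state whether or how messenger RNA was selected. The 1 gene without a name, with 0.113 to 0.333% of the counts, was left out, and 0 columns came from outside the series. From the counts, edgeR 4.0.16 in R 4.3.3 was run with TMM, its filter on the condition, the animal as a block and a robust quasi-likelihood F test. Log2 CPM used a prior count of 2, and p-values were adjusted by Benjamini-Hochberg over all genes tested. Alternatives used DESeq2 1.42.0 and limma 3.58.1. The tests were also run on simulated data with 200 changed genes. Those counts were drawn gene by gene, without covariation between genes and, for the condition test, without differences between animals. That check therefore does not cover these features of the data.

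Pairing comes from the animals, and deviations of A and N clones of the same animal correlated at 0.184, 0.128, 0.239 and 0.422 in animals 17, 20, 22 and 23. Clones of an animal are separate cultures but share that animal, and 4 animals limit what the p-values say beyond them. Members and lists were chosen with earlier results of these data known. Genes named by rule are the 13 mitochondrial genes, nuclear calls, complex II, CYC1, CYCS, isoform pairs, the 3 nuclear genes with the smallest p between animals and for the interaction, and the nuclear gene with the most counts per complex. Values of 1 such gene are left out of the text and plots. Genes outside this rule were chosen on seeing their values. Promoter motifs and sequences were not analysed here.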

Additional observations from a re-analysis of the deposited data

Results flagged for a closer look

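Clones standing apart within their condition were sought among the 35 named respiratory chain genes that were tested and 3 summed measures, in 76 groups of 10 clones. By chance about 1 group in 20 would be marked, or 3.8 groups, and 1 was. UQCRC1, the complex III core protein, had its lowest A value in A 23-68, at 129 CPM, while the other A clones lay between 157 and 182 CPM. The gap to the nearest clone was 0.574 of the range of the group.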

How the results depend on the processing

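The count of called nuclear genes was 1. It was 0 with DESeq2 size factors, with at least 10 counts in every clone, with counts summed per animal and condition (where 0 of 14669 genes were called at all) and without animal 23, and it was 2 with the mitochondrial genes left out of the library size and in DESeq2's Wald test, 5 without animal 17 and 14 with total counts in place of TMM, an alternative added after the data were seen. The count of mitochondrial genes was 0, and it was 1 without the replicate block (the animal), with upper-quartile normalization and in DESeq2's Wald test, where the gene was ND6, and 2 with total counts. Without the block ATP5F1A was not called, with an adjusted p of 0.0542 in edgeR's test. Without a filter the nuclear call was COX7ALP1. With 1 clone left out the counts ran from 0 to 5 and from 0 to 1; without N 17-23 or A 17-57, which removes the contrast of animal 17, ATP5F1A, NDUFS1, NDUFS4, NDUFV1 and SDHA were called. Without animal 23 only 0.245% of all genes were called. Between animals the count of 0 became 2 in DESeq2's likelihood ratio test, and with 1 clone left out it ran from 0 to 1. The correlation of the genomes, 0.272, ran from 0.170 without N 22-17 to 0.385 without N 17-23. The interaction count at an adjusted p was 0 in every fit tried, whereas the count at an unadjusted p moved with single clones. The shares of counts, the log2 ratio and the count of genes more spread in N stayed within their spread or within 1.5 times under the alternatives tried. Of 1189 refits of 35 named genes, 92 gave a fold change of the other sign, none of them called. The causes were not tested.

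Animals 17 and 20 hold 1 clone of each condition, so their differences have no replicate check. Depth limits the complex IV isoforms that had few counts, which were not tested.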
